A study of Mus musculus with 9 samples.

Results

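The Ink4 and Cip/Kip inhibitors of cyclin-dependent kinases (CDKs) form a family of 7 mouse genes, chosen by name: the Ink4 genes Cdkn2a, Cdkn2b, Cdkn2c and Cdkn2d, and the Cip/Kip genes Cdkn1a, Cdkn1b and Cdkn1c. They are 7 of the 20076 genes listed in at least one of the authors' deposited tables. RNA-seq had been carried out on cultured murine brain astrocytes of the genotype Ink4a-/-, which all groups shared. The control group carried the vector pcDNA puro, the JICD1 group pcDNA HA-JICD1 puro and the NICD1 group pcDNA NICD puro, with 3 libraries each. JICD1 is the intracellular domain of the Notch ligand Jagged1 with an HA tag, and NICD1 that of the receptor Notch1. The labels give no strain, no animal age, no time after transfection and no statement that the libraries came from separate cultures, and they do not say which exons the Ink4a-/- allele lacks.

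CDK inhibitors are brakes of the cell cycle. The Ink4 proteins bind Cdk4 and Cdk6 and keep them from pairing with D-type cyclins, so that the retinoblastoma protein stays active and E2F factors stay silent. The Cip/Kip proteins bind a wider range of cyclin-CDK complexes, above all those of Cdk2. Cdkn2a encodes a pair of unrelated proteins, the kinase inhibitor p16Ink4a and, in another reading frame, p19Arf, which stabilises p53 by binding Mdm2; Cdkn2b encodes p15Ink4b and lies beside it. The locus is silent in most young tissues, is switched on in senescence, and is often lost in glioma.

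The tables hold, per gene, 1 log2 ratio of a transfected group over control and 1 score between 0 and 1. A gene is called scored here at a score of 0.8 or more, which is not a significance level. Values per library were not used here, so no ratio has an error or a p-value, and higher and lower carry no test. Among all genes 2.81% were scored in the JICD1 comparison (1.07% higher, 1.74% lower) and 2.61% in the NICD1 comparison (1.64% higher, 0.97% lower). Of the inhibitor genes, 1 of 6 listed was scored for JICD1 and 3 of 6 for NICD1, all of them higher. At a log2 ratio of 1 or more stood 3 of 6 members in each comparison, against 14.5% of all genes for JICD1 and 16.6% for NICD1. None stood at -1 or less, against 14.4% and 12.1% of all genes. The members' median log2 ratio was 1.26 for JICD1 and 0.87 for NICD1, against 0.045 and -0.016 over all genes of the authors' deposited tables. These counts and medians take in Cdkn1c for JICD1 and Cdkn2a for NICD1, each listed in that comparison alone. Of all genes listed in a single comparison, 98.7% for JICD1 and 99.4% for NICD1 had ratios above 0. Their direction thus came with the listing, and the counts are not a result about the family. In RNA from whole cultures, fewer cells of a type and less RNA per cell cannot be told apart.

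A second feature of the tables bears on the whole family. There were 694 genes with the same negative log2 ratio in both comparisons, and within each comparison their scores traced a curve on the ratio. Equal ratios arise if both transfected groups stand at a common floor. In each comparison its own curve formed the lower edge of the scores. At absolute log2 ratios from 1 up to the end of the curve at 9.45, 0.146% of genes in the JICD1 comparison and 0.127% in the NICD1 comparison lay below it. A gene lying on it was inferred to have 1 of its groups at the floor, so its ratio rests on that floor and is given without a fold. Of all genes, 6.28% lay on the curve with a higher ratio and 6.39% with a lower one for JICD1, and 7.77% and 5.8% for NICD1. Of the members, 2 lay on it for JICD1 (Cdkn2b and Cdkn1c) and 1 for NICD1 (Cdkn2a), all with higher ratios. These are among the members counted above at a log2 ratio of 1 or more. The authors' deposited tables do not mark a floor themselves, and the call is made only from an absolute log2 ratio of 1.

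Cdkn2b, the p15Ink4b gene, had its NICD1 value at 11.24 on the log2 scale, scored at 0.991, in the authors' deposited table. That was rank 1 of 19287 genes. In the libraries labelled JICD1 the authors' deposited table gave it 1.81, scored at 0.200, which is on the floor curve. Its control group was therefore inferred to lie at the floor, so the size and rank of its NICD1 ratio rest on that floor too. The JICD1 value was then a small step above that floor and the NICD1 value a very large one, beyond the end of the curve. Only 19.7% of the 300 genes nearest in absolute ratio had a lower score than Cdkn2b in the JICD1 comparison. The NICD1 share was 96.7%, but there Cdkn2b had the largest ratio, so all 300 genes had smaller ones. Because the lower edge of the scores rises with the ratio, these shares are not comparable.

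Cdkn2a, the p16Ink4a and p19Arf gene, went with its neighbour in the NICD1 comparison. The authors' deposited table put it at 7.59 on the log2 scale for NICD1, scored at 0.827 and rank 32 of 19287. Its score lay within 0.0027 of the floor curve, so its control too was inferred at the floor, on which its ratio and rank rest. It was not listed in the JICD1 comparison. Genes listed for NICD1 alone numbered 1105, of which 99.4% had ratios above 0. Of the 965 among them at a log2 of 1 or more, 96.6% lay on the floor curve in the authors' deposited table. Cdkn2a was one of these genes. The genotype is named for this gene, so the value was set beside its annotation and its closest relative.

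**Figure D1:**
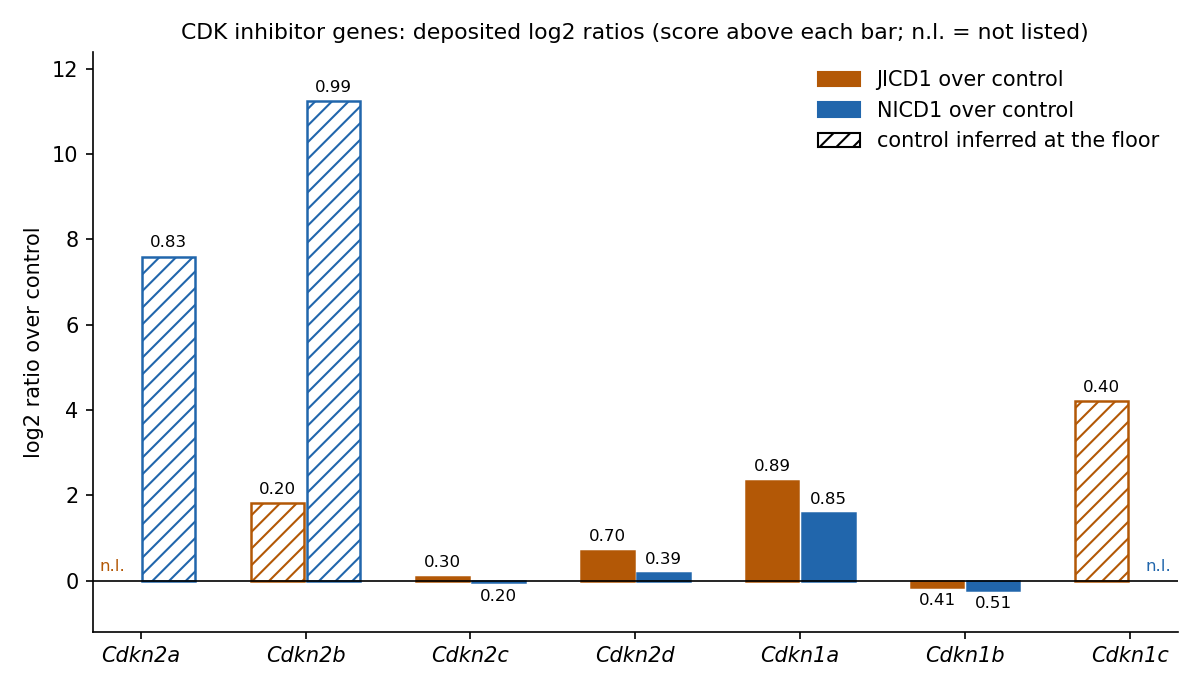
Deposited log2 ratio over control (vertical axis) of the 7 inhibitor genes (horizontal axis), JICD1 in orange and NICD1 in blue, with the score at the end of each bar and n.l. for not listed; there are no error bars because the tables hold no value per library. Hatched bars mark a control inferred at the floor: Cdkn2a (7.59) and Cdkn2b (11.24) stand out for NICD1 and Cdkn1c (4.20) for JICD1, while Cdkn1a is higher with both.

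In the GENCODE annotation of GRCm38, Cdkn2a has 2 coding transcripts, each of 3 exons, on the minus strand of chromosome 4. The transcript Cdkn2a-201 starts with the p16Ink4a exon at chr4:89281986-89282192, and Cdkn2a-202 with the p19Arf exon at chr4:89294334-89294653. Both go on with exon 2, which the proteins read in different frames. In all, 575 of 1172 exonic bases (49.1%) belonged to both transcripts, with 277 bases only in the first and 320 only in the second. A single value per gene does not say which transcript or which exons gave the reads, so the Cdkn2a ratio does not check the genotype, and a p16Ink4a and a p19Arf signal cannot be told apart.

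Cdkn2a and Cdkn2b are related by duplication, and reads of one could be assigned to the other if the transcripts were alike over the length of a read. The longest run without a difference between the whole transcripts was 23 bases, and no run of 25 or of 50 bases was shared. Over the aligned coding sequences 75.0% of bases were identical. The sources used here give neither the read length nor the mismatches allowed, and how many Cdkn2b reads could be counted for Cdkn2a was not tested. Among the other member pairs the longest shared run was 16 bases, between Cdkn2b and Cdkn2d.

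The protein-coding genes around the pair were read beside it, and 5 of the 9 within 5 places of Cdkn2a, Cdkn2b apart, were listed in each comparison. On one side of Cdkn2a lies Mtap, which encodes the methylthioadenosine salvage enzyme and is often deleted along with this locus in tumours. Mtap had log2 ratios of -0.64 (score 0.747) for JICD1 and -0.60 (score 0.743) for NICD1 in the authors' deposited tables. Beyond Cdkn2b, Dmrta1 stood at -1.15 (on the floor curve) and -0.44 and Zfp352 at 2.00 and 0.71 in the authors' deposited tables, all with scores of at most 0.25. Elavl2, which encodes a neuronal RNA-binding protein, was the exception, at -8.20 (score 0.871, JICD1 group inferred at the floor) for JICD1 and -2.47 (score 0.759) for NICD1 in the authors' deposited tables. Ifne stood at -2.61 (score 0.246, on the floor curve) and 0.028 (score 0.127) in the authors' deposited tables. The interferon genes Ifna1, Ifna4 and Ifna5 on one side, and Izumo3 and Tusc1 on the other, were listed in neither comparison. None of the listed protein-coding genes flanking the pair within 5 places was scored higher with either construct. Of all genes 1.07% were scored higher for JICD1 and 1.64% for NICD1, so none among 5 is near those shares. The long non-coding gene Gm12610, whose span takes in Cdkn2b, stood at -0.88 for JICD1 and 2.24 for NICD1 in the authors' deposited tables, not scored, and is described below.

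**Figure D2:**
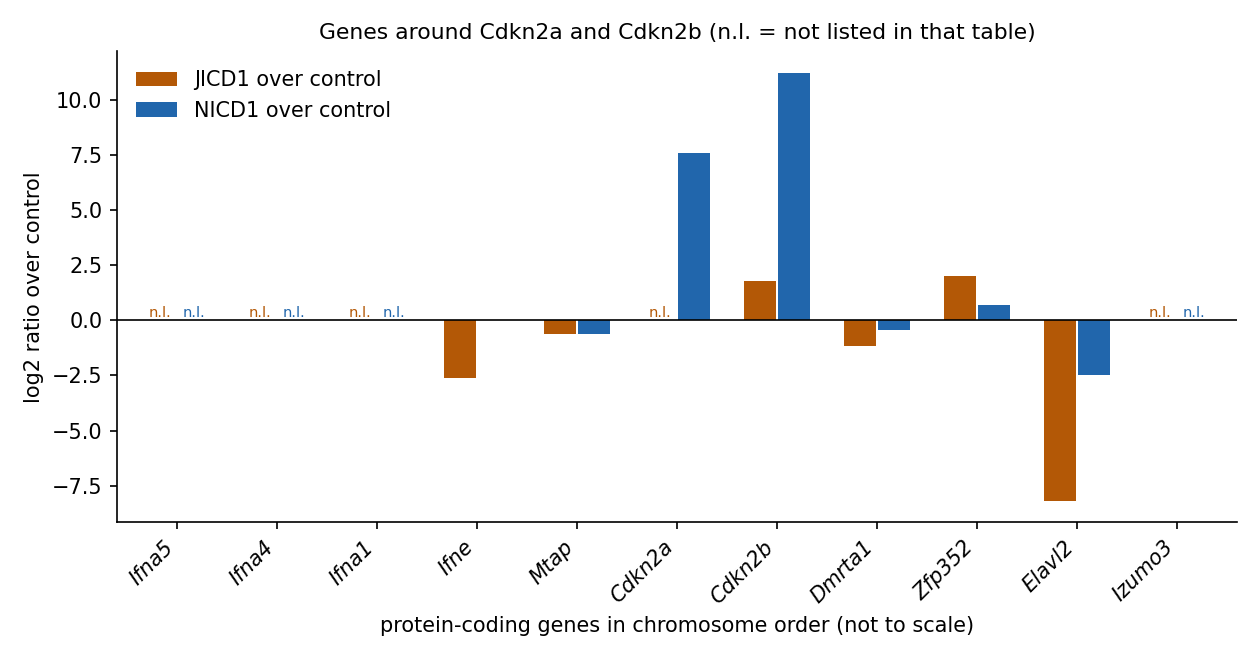
Deposited log2 ratio over control (vertical axis) of Cdkn2a, Cdkn2b and the protein-coding genes up to 5 places from Cdkn2a in chromosome order (horizontal axis, not to scale), JICD1 in orange and NICD1 in blue. Cdkn2a (7.59) and Cdkn2b (11.24) stand above their neighbours for NICD1, and Elavl2 stands at -8.20 for JICD1; n.l. means not listed.

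The remaining Ink4 genes were not scored. Cdkn2c, the p18Ink4c gene, had log2 ratios of 0.094 (1.07-fold, score 0.2999) for JICD1 and -0.037 (1.03-fold, score 0.202) for NICD1 in the authors' deposited tables. Cdkn2d, the p19Ink4d gene, stood at 0.71 (1.63-fold higher, score 0.703) for JICD1 and 0.17 (1.13-fold higher, score 0.391) for NICD1 in the authors' deposited tables. All 4 ratios were below 1. The 5 genes on each side of these 2 inhibitors held no scored gene in either comparison. For so few genes that is near the shares over all genes, 2.81% for JICD1 and 2.61% for NICD1.

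Cdkn1a was the one inhibitor scored with both constructs. It encodes p21Cip1, the p53-induced inhibitor of Cdk2 complexes that halts cells after DNA damage. The authors' deposited tables gave it a log2 ratio of 2.35 (5.09-fold higher, score 0.889) for JICD1 and 1.57 (2.98-fold higher, score 0.850) for NICD1. Its score was above that of 100% of the 300 genes nearest in absolute ratio for JICD1 and of 98.0% for NICD1, so it sat at the upper edge of the scores where Cdkn2b in the JICD1 comparison sat at the lower. The row describes it by a transcript at chr17:29098207-29099569 of GRCm38 in the authors' deposited tables. No gene within 5 places was scored, which for so few genes is near the shares over all genes, 2.81% for JICD1 and 2.61% for NICD1. The 7 listed neighbours of Cdkn1a ranged from -0.26 to 0.41 for JICD1 and from -0.81 to 0.54 for NICD1 in the authors' deposited tables. Srsf3, the splicing factor gene next to it, stood at -0.18 and -0.13 in the authors' deposited tables.

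Cdkn1b and Cdkn1c differed from Cdkn1a and from each other. Cdkn1b encodes p27Kip1, an inhibitor set mainly by protein turnover, and had log2 ratios of -0.15 (1.11-fold lower, score 0.405) for JICD1 and -0.22 (1.16-fold lower, score 0.508) for NICD1 in the authors' deposited tables. Cdkn1c encodes p57Kip2 and is imprinted, being expressed from the maternal copy. It stood at 4.20 on the log2 scale for JICD1, scored at 0.401 and on the floor curve, in the authors' deposited table, and was not listed for NICD1. Its ratio was rank 141 of 18971, a rank that rests on the floor. Genes listed for JICD1 alone numbered 789, of which 98.7% had ratios above 0. Of the 666 among them at a log2 of 1 or more, 98.3% lay on the floor curve, and Cdkn1c was one of these. The listed neighbours of Cdkn1c within 5 places showed no common direction. None was scored, which for so few genes is near the shares over all genes, 2.81% for JICD1 and 2.61% for NICD1. Phlda2 was listed for JICD1 alone, at 2.55 on the floor curve, and Kcnq1 for NICD1 alone, at 1.52 on the floor curve, in the authors' deposited tables. Slc22a18 stood at -1.27 for JICD1 and -4.10 for NICD1 in the authors' deposited tables. These 3 were named after their values were seen.

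**Figure D3:**
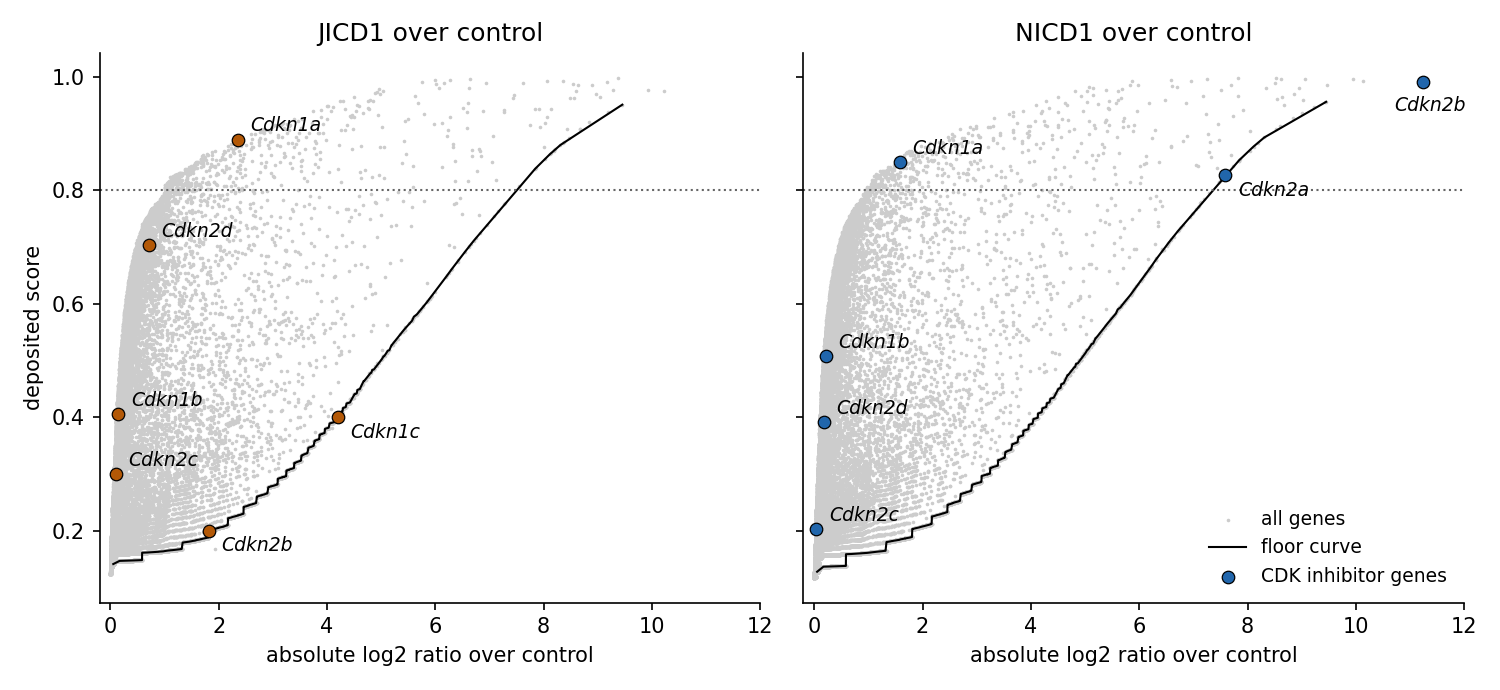
Deposited score (vertical axis) against the absolute log2 ratio over control (horizontal axis) for all genes (grey) and the inhibitor genes (coloured), JICD1 left and NICD1 right. The black line is the curve of that comparison through the 694 genes with equal negative ratios, and the dotted line is a score of 0.8. Cdkn2b and Cdkn1c lie on the curve for JICD1 and Cdkn2a on it for NICD1, whereas Cdkn1a lies at the upper edge in both.

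The comparisons use the same control, so subtracting one log2 ratio from the other sets JICD1 against NICD1, with no score. Cdkn2b was 9.43 lower on the log2 scale in the libraries labelled JICD1 (a difference of -9.43), a value that 8 of the 18182 genes in both comparisons reached or passed, Cdkn2b included. The other 4 members in both comparisons lay above 0: Cdkn1a at 0.77, Cdkn2d at 0.53, Cdkn2c at 0.13 and Cdkn1b at 0.074. Over all shared genes the median difference was 0.040, and 24.2% differed by 1 or more in either direction. Of the 5 members, Cdkn2b did so. Cdkn2a and Cdkn1c have no such difference, since each was listed in a single comparison, Cdkn2a for NICD1 and Cdkn1c for JICD1.

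Likeness to other genes was taken as the distance in the plane of the 2 log2 ratios, among 850 genes in both comparisons and scored in at least one. Nearest to Cdkn2b was Has2, the hyaluronan synthase 2 gene, at a distance of 1.15, with log2 ratios of 1.49 and 10.13 for JICD1 and NICD1 in the authors' deposited tables. Next came Creb3l1 (distance 1.89), Bhlhe22 (2.01) and Tmem35a (2.37), which had NICD1 ratios of 9.96, 9.43 and 8.94 in the authors' deposited table. Even the nearest gene was thus more than 1 log2 unit away. Cdkn2b had the highest NICD1 ratio of all genes, where few others lie, so its distances are not comparable with those of Cdkn1a. The genes nearest to Cdkn1a were Arhgap24 (distance 0.11), Rhod (0.27), Dusp22 (0.30) and Igsf3 (0.34). Of these, Rhod was scored with both constructs, at 2.07 and 1.58 in the authors' deposited tables.

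The promoters of the scored members are shown because RBPJ, the DNA-binding partner of the Notch1 intracellular domain, has a short known core motif that can be looked for there. Each is the 250 bases before a RefSeq start on GRCm38.p6, on the gene's strand. Capitals mark TGGGAA, the RBPJ core, or GGGCGG, a GC box, on either strand, and in the first Cdkn1a promoter a p53 element. The starts are those of p19Arf at chr4:89294620-89294869 and p16Ink4a at chr4:89282193-89282442, both minus strand, of Cdkn2b at chr4:89311033-89311282, minus strand, and of Cdkn1a at chr17:29090729-29090978 and chr17:29093519-29093768, both plus strand.
Cdkn2a, p19Arf start: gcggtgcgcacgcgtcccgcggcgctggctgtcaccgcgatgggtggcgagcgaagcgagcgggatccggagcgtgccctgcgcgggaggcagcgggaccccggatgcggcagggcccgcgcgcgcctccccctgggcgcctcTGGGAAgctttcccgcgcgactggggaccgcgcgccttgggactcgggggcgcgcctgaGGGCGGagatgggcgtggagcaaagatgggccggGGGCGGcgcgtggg
Cdkn2a, p16Ink4a start: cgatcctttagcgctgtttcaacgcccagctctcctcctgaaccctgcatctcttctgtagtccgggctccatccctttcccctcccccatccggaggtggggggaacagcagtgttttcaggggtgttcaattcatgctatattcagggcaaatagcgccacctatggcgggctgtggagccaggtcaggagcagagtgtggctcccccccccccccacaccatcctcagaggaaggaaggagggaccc
Cdkn2b: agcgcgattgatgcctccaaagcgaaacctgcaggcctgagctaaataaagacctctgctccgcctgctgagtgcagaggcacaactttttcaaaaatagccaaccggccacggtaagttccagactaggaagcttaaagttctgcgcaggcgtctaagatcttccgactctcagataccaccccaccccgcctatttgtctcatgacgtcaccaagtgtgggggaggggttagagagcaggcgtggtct
Cdkn1a, upstream start: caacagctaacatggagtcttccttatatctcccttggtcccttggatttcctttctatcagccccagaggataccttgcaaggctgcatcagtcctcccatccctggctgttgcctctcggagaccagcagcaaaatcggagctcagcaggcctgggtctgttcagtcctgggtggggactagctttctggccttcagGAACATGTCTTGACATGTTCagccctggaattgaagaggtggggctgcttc
Cdkn1a, downstream start: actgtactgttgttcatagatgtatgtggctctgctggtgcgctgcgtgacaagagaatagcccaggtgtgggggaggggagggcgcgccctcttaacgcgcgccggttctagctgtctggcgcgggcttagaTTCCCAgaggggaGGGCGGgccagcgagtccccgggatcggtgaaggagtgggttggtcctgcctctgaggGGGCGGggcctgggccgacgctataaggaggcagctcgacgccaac
RefSeq promoters were found for 6 members and gave 9 windows; Cdkn1c had no entry. TGGGAA was in 3 of the 9 windows, against 21.6% of all 32851 promoters of the same length. Those were the p19Arf window (107 to 102 bases before the start), the downstream Cdkn1a window (117 to 112) and that of Cdkn2d (209 to 204). The E-box CACGTG, which Myc proteins bind, was in no member window and in 6.02% of promoters. The SMAD box, which relays TGF-beta signals, was searched as CAGACA and was in 2 member windows and 17.1% of promoters. Its palindrome GTCTAGAC was in no member window and in 0.167% of promoters. The TATA box, searched as TATAAA, was in no member window and in 12.37% of promoters. All were searched on both strands, and the Cdkn2b window held none of them. GC boxes were in 5 of the 9, against 32.7% of promoters. The p19Arf window was of 78.4% GC content with 40 CpG sites, the p16Ink4a window 60.0% with 7 and the Cdkn2b window 53.6% with 12. A p53 element, searched for after the sequences had been seen as a pair of abutting decamers with at most 1 mismatch in 20 bases, was in the upstream Cdkn1a window, 51 to 32 bases before the start, with 1 mismatch. It was in 25 of all promoters (0.0761%) and in no other member window. A match is a run of letters and says nothing of binding.

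Among the targets of the inhibitors, none of the 12 CDKs and cyclins was scored in either comparison, with medians of 0.11 for JICD1 and -0.013 for NICD1. Of all genes 2.81% were scored for JICD1 and 2.61% for NICD1, so a count of 0 in a list this short is near those shares. The same holds for the E2F, proliferation and ubiquitin ligase lists below. Cdk4 and Cdk6, the kinases the Ink4 proteins bind, stood at 0.10 and -0.28 for JICD1 and at -0.031 and 0.046 for NICD1 in the authors' deposited tables. The D-type cyclin genes Ccnd1, Ccnd2 and Ccnd3 had JICD1 ratios of 0.43, 0.11 and 0.30 in the authors' deposited table. For NICD1 the authors' deposited table gave -0.034, -0.62 and 0.29 in the same order. Cdk2, the main Cip/Kip target, stood at 0.10 and 0.0043 and its partner Ccne1 at -0.053 and 0.47 in the authors' deposited tables. The ratio farthest from 0 on this list was that of the S-phase cyclin gene Ccna2 for JICD1, at 0.88 (1.84-fold higher, score 0.779), against -0.22 (score 0.558) for NICD1 in the authors' deposited tables.

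Pocket protein and E2F genes, which act below these kinases, held no scored member among 13. Of these, 10 lay above 0 for JICD1 (median 0.19) and 11 below 0 for NICD1 (median -0.17). Rb1, the retinoblastoma gene, stood at 0.37 and -0.56 and E2f1 at 0.52 and -0.034 in the authors' deposited tables. The 20 proliferation genes, such as Mki67 and Pcna, had medians of 0.068 and -0.12, again with none scored. None of the 11 ubiquitin ligase genes for Cip/Kip proteins was scored, and Skp2, whose product marks p27Kip1 for destruction, stood at -0.24 and -0.27 in the authors' deposited tables. The genes of the kinase, E2F and proliferation lists all had absolute log2 ratios below 1 in both comparisons.

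Counts of scored genes among known regulators of the inhibitor genes are read beside the shares over all genes, 2.81% for JICD1 and 2.61% for NICD1. In lists of 16 or 18 genes a count of 0 or 1 is not set apart from those shares. Of 16 listed regulators of the Ink4-Arf locus, which include the Polycomb genes Bmi1, Cbx7 and Ezh2, none was scored, with medians of 0.044 for JICD1 and -0.090 for NICD1. In the p53 arm, 1 of 18 genes was scored in each comparison, the membrane protein gene Perp, at -1.22 and -4.28 in the authors' deposited tables. Trp53 stood at -0.38 and -0.15 and Mdm2, itself a p53 target, at 0.32 and -0.0014 in the authors' deposited tables. Other p53 targets with scores just under 0.8 went both ways in the authors' deposited tables. Zmat3 at 1.07 (score 0.797) and Ccng1 at 0.93 (score 0.786) were higher for JICD1, and Btg2 at 2.25 (score 0.780) for NICD1. Pmaip1 at -7.27 (score 0.776, on the floor curve) and Fas at -2.07 (score 0.772) were lower for JICD1, and Plk2 at -0.73 (score 0.767) for NICD1. Btg2 stood at 1.24 (score 0.558) and Plk2 at -0.038 for JICD1 in the authors' deposited table. For NICD1, Zmat3 stood at -0.062, Ccng1 at 0.28, Pmaip1 at 0.47 and Fas at 0.55 in the authors' deposited table. Of the 18 genes, 10 lay below 0 for JICD1 (median -0.061) and 12 for NICD1 (median -0.070). Apart from Perp, Trp53 and Mdm2, the genes of this list were named after their values were seen. Of the 18 genes of TGF-beta, FoxO, Myc and Klf inputs, 14 lay below 0 for JICD1, with Tgfb1 scored lower at -1.03 in the authors' deposited table. For NICD1 the scored gene was the early growth response gene Egr1, at 1.79 in the authors' deposited table, where Tgfb1 stood at 0.60 with a score of 0.738.

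Senescence-associated genes, fixed as a list because Cdkn2a and Cdkn2b mark that state, had scored members in both comparisons. For JICD1, 3 of 13 were scored lower (1.74% of all genes) and none higher (1.07% of all genes), with a median of -0.69. Among them, Ccl2, a monocyte chemokine gene, stood at -1.88 and Igfbp7 at -1.01 in the authors' deposited table. Without genes on the floor curve that median was -0.042. For NICD1 the median was 0.55, which became 0.31 without genes on the floor curve and 0.74 with the tables' own symbols only. There 4 of 15 were scored higher (1.64% of all genes) and none lower (0.97% of all genes). Among them, the protease genes Mmp13, Mmp10 and Mmp3 stood at 6.17, 5.98 and 3.96 in the authors' deposited table. Lmnb1, the lamin B1 gene whose loss goes with senescence, had ratios of -0.042 and -0.25 in the authors' deposited tables and was not scored. These lists were chosen with earlier results known, and the difference between the comparisons was not tested.

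**Figure D4:**
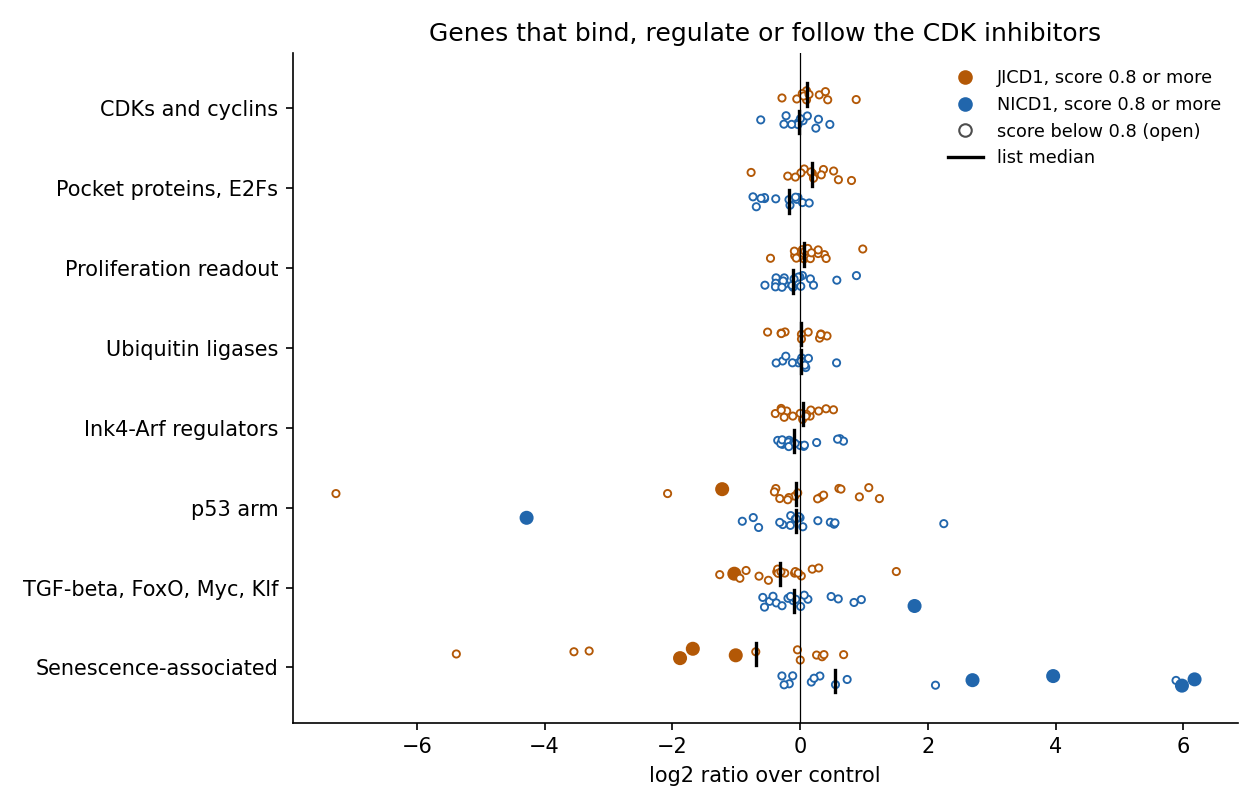
Deposited log2 ratio over control (horizontal axis) of the genes of 8 lists (rows), JICD1 in orange and NICD1 in blue; filled points have a score of 0.8 or more, open points a lower score, and black bars are list medians. Kinase, E2F, proliferation and ubiquitin ligase genes cluster near 0 with none filled, and the senescence-associated list spreads lower for JICD1 and higher for NICD1. Without genes on the floor curve the median of that list goes from -0.69 to -0.042 for JICD1 and from 0.55 to 0.31 for NICD1.

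As a check of the constructs, Jag1 stood at -1.39 (score 0.759) for JICD1 and at 1.36 (score 0.819) for NICD1 in the authors' deposited tables. Notch1 stood at 1.33 (score 0.735) for JICD1 and at 1.77 (score 0.815) for NICD1 in the authors' deposited tables. So Jag1 was lower with the construct made from it and higher with the other, and Notch1 was higher with both. The sources used here do not say whether a construct's transcript is counted for its gene, so these values cannot check the labels either way. Directions for either construct therefore rest on the labels. Cell type could not be checked by level, as the tables hold none. Of 12 astrocyte markers 11 were listed (Aqp4 was not), with medians of -0.72 for JICD1 and -0.69 for NICD1. Clu was scored lower in both, at -3.88 and -2.30, Sox9 lower for NICD1 at -1.64 and Nfia higher for JICD1 at 3.77 in the authors' deposited tables. Marker counts are read beside the shares over all genes, 1.74% scored lower and 1.07% higher for JICD1, and 0.97% and 1.64% for NICD1. Of fibroblast and pericyte markers, 4 of 5 listed were scored lower for JICD1 (median -2.17), among them Dcn at -8.67 on the floor curve. For NICD1 Dcn was scored lower and Col1a1 higher of 6 listed (median -0.58). Of neuron markers, Map2 was scored higher and Tubb3 lower in both comparisons, and Stmn2 and Gap43 higher for NICD1. Their medians were 0.29 over 6 listed for JICD1 and 2.76 over 5 for NICD1, with Rbfox3 and Snap25 listed in neither. Of 7 microglia markers 1 was scored lower for JICD1 and none for NICD1, and no oligodendrocyte or endothelial marker was scored. In lists this short such low counts are not set apart from the shares over all genes. The part of these cell types in the values of the inhibitor genes was not tested.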

How the data were processed

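RNA-seq of 9 libraries, 3 per group, had been reduced by the authors to 2 deposited tables. Each holds a log2 ratio of a transfected group over control, per the file headers, and a score under the heading Probability, as deposited. Per the submitters' processing notes, the tools were Bowtie2 and BWA (versions and roles not named) and the build was mm9, whereas row descriptions in the tables quote GRCm38 transcripts. Counting, normalization, the pooling of libraries and the making of the score are not given in the sources used here. No value per library was used, so no planned count test or error could be computed and depth is unknown. The tables held 0 unused per-sample columns.

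Genes were named by NCBI or Ensembl ID with RefSeq and GENCODE vM21 names, which named 18681 of 18971 genes (JICD1) and 18998 of 19287 (NICD1). All 7 members matched, 5 in both tables. The floor curve, made for each comparison, joined genes with negative ratios equal within 1e-06. A gene was on it within 0.002 in score (0.01 above a log2 of 6), from an absolute log2 ratio of 1.

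The members, the 9 pathway lists, the 6 marker lists, the score of 0.8 and the rule for named genes were chosen with earlier results of these data known. That rule took all members, their binding partners and direct regulators, up to 4 scored genes per list and table, the genes next to Cdkn2a and Cdkn2b, and the 4 genes nearest to Cdkn2b and to Cdkn1a. Python 3.11.15, pandas 2.3.3 and Biopython 1.88 were used. Alternatives were score thresholds of 0.7 and 0.9, an added absolute log2 ratio of 1, the tables' own symbols, subtraction of a median, removal of genes on the floor curve and 10 neighbours on each side. A few results on single genes and sequences are not reported here.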

Additional observations from a re-analysis of the deposited data

How the results depend on the processing

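No paired analysis was possible because each table gives a single ratio for a gene, without values of the separate libraries; for the same reason leaving out each replicate and the replicate block were not run. At a score of 0.7 the scored members numbered 2 for JICD1 (Cdkn2d joined at 0.703) against 1 at 0.8, and 3 for NICD1 at both. At 0.9 they numbered 0 for JICD1 and 1 for NICD1, Cdkn2b. With the tables' own symbols only they numbered 0 for JICD1, where Cdkn1a is called p21, and 2 for NICD1. The 12 scored entries of the pathway lists over both tables became 43 at 0.7, 4 at 0.9 and 7 with own symbols. Scored neighbours went from 1 to 2 with 10 genes on each side (Fam234b joined Elavl2). Subtracting the median of all genes, or of genes with a score below 0.5, reversed no member and moved none by as much as 0.1.

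List medians near 0 changed sign. With own symbols only, CDKs and cyclins for NICD1 came to 0.0043, pocket proteins and E2F factors for JICD1 to -0.13, ubiquitin ligases to -0.11 for JICD1 and -0.13 for NICD1, and TGF-beta, FoxO, Myc and Klf inputs for NICD1 to 0.064; fewer genes are named there. With the median of all genes subtracted, CDKs and cyclins for NICD1 came to 0.0029, ubiquitin ligases for JICD1 to -0.024 and Ink4-Arf regulators for JICD1 to -0.0011.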

Other observations

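Other genes whose symbols begin with Cdkn are not kinase inhibitors of these families and were read apart. Cdkn3, which encodes a phosphatase acting on Cdk2, was scored for JICD1 at a log2 ratio of 2.09 (4.26-fold higher, score 0.868) in the authors' deposited table and stood at 0.89 (1.85-fold higher, score 0.730) for NICD1. Cdkn2aip, whose product binds p19Arf, stood at -0.63 (score 0.589) and -0.099 (score 0.263) in the authors' deposited tables.

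The long non-coding gene Gm12610, whose RefSeq span takes in Cdkn2b, stood at -0.88 (score 0.207) for JICD1 and 2.24 (score 0.4995) for NICD1 in the authors' deposited tables; it was looked up after the values of Cdkn2b were seen. The sources used here do not say whether counting used the strand, and overlapping reads of Gm12610 and Cdkn2b cannot be told apart.

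Row descriptions quoted GRCm38 in 11622 of 18971 rows for JICD1 and 11814 of 19287 for NICD1, although the notes name mm9. The symbol of Cdkn1a was p21 in one of the authors' deposited tables and a dash in the other. Of the gene ontology terms in the authors' deposited tables, all 7 members shared that for regulating cyclin-dependent protein kinases, which 12 genes carried for JICD1 and 11 for NICD1.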
